A study of Mus musculus with 2 samples.

Results

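The proteasome genes of the heart were described across 2 libraries of total RNA. The genes were those whose annotated symbol is Psm, then a letter from a to g, then a digit, with at least 1 protein-coding transcript and without the pseudogenes named -ps. The rule found 50 genes of 55536 annotated genes. They were sorted by role into 7 alpha and 7 beta subunits of the constitutive core, 3 immune subunits, 2 tissue-specific subunits, 6 ATPase and 11 non-ATPase subunits of the regulatory particle, 3 chaperones of the regulatory particle, 5 activators, 1 inhibitor and 4 chaperones of the core. The remaining gene, Psmc3ip, matched the rule by its symbol only: its product is a factor of meiotic recombination named for binding Psmc3. Both libraries came from heart tissue of male B6CASTF1/J mice, the first-generation cross of C57BL/6J and CAST/EiJ, aged 18 to 20 months, with no treatment named in the labels. The protocol was stranded and reduced ribosomal RNA, ERCC spike-ins were added, and the input was 300 ng of RNA a library. The labels call them biological replicates 1 and 2 of 1 group, with different biosample identifiers and the same donor identifier. No comparison between conditions could be made, so levels are described in both libraries and the only ratio is replicate 2 over replicate 1. A p-value below therefore speaks only of these 2 samples, and their difference may be technical.

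The proteasome is the large protease that degrades most short-lived and damaged proteins of the cytosol and nucleus, mostly after they have been tagged with ubiquitin. Its barrel-shaped core, the 20S particle, stacks a pair of inner beta rings, whose Psmb5, Psmb6 and Psmb7 products cut peptide bonds, between outer alpha rings that gate the entrance. The 19S regulatory particle caps the core, binds and removes ubiquitin, and uses a ring of ATPases to unfold the substrate. Interferon-stimulated cells replace the cutting subunits by Psmb8, Psmb9 and Psmb10, which changes the peptides made for antigen presentation, and other activators (PA28, PA200) can take the place of the 19S cap. In heart muscle the ubiquitin-proteasome system turns over sarcomere proteins. Each core and 19S subunit stands at equal numbers in the particle.

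Values are TPM (a transcript level scaled for length and for the size of the library) of the deposited gene table, given for replicate 2 and then replicate 1, or as mean ± SD (n = 2), unless the second deposited quantification is named. The expected counts of the gene tables summed to 37281459 for replicate 2 and 38858481 for replicate 1, of which the 50 genes took 79286 and 92599. RNA of the mitochondrial chromosome took 34.4% of counts in replicate 2 and 29.3% in replicate 1. Nuclear protein-coding genes held 36.1% of TPM in replicate 2 and 41.8% in replicate 1. TPM values of nuclear genes therefore summed lower in replicate 2, and differences between libraries were read from counts scaled by TMM, a normalization set by the bulk of genes. The tissue label was checked against marker genes. All 6 cardiomyocyte markers were above 1 TPM in both libraries, and their summed level was 21168 and 25614 TPM. None of 6 T and NK cell markers, 4 B cell markers or 4 neutrophil markers reached 1 TPM in both.

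Transcripts of the proteasome were present at moderate to high levels in the aged heart, and nearly all subunits were measured. Of the 50 genes, 47 were at 1 TPM or more in both libraries and 39 had a mean of at least 10 TPM. Among them 33 ranked in the top 10% of nuclear protein-coding genes, and 41 stood above 8.33 TPM, the median of the 11116 protein-coding nuclear genes that averaged 1 TPM or more. Together the 50 genes held 0.503% of nuclear protein-coding TPM in replicate 2 and 0.523% in replicate 1, a mean of 0.513% ± 0.0139. The constitutive core summed to 764 and 925 TPM. The 17 subunits of the regulatory particle summed to 699.5 and 813 TPM, close to the core although they are more numerous. The activators summed to 239 and 297 TPM and the immune subunits to 40.6 and 61.2 TPM. The chaperones were lower, at 35.4 and 41.2 TPM for the core and 13.9 and 19.9 TPM for the regulatory particle, and the inhibitor gene Psmf1 was at 8.52 and 8.51 TPM.

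**Figure D1:**
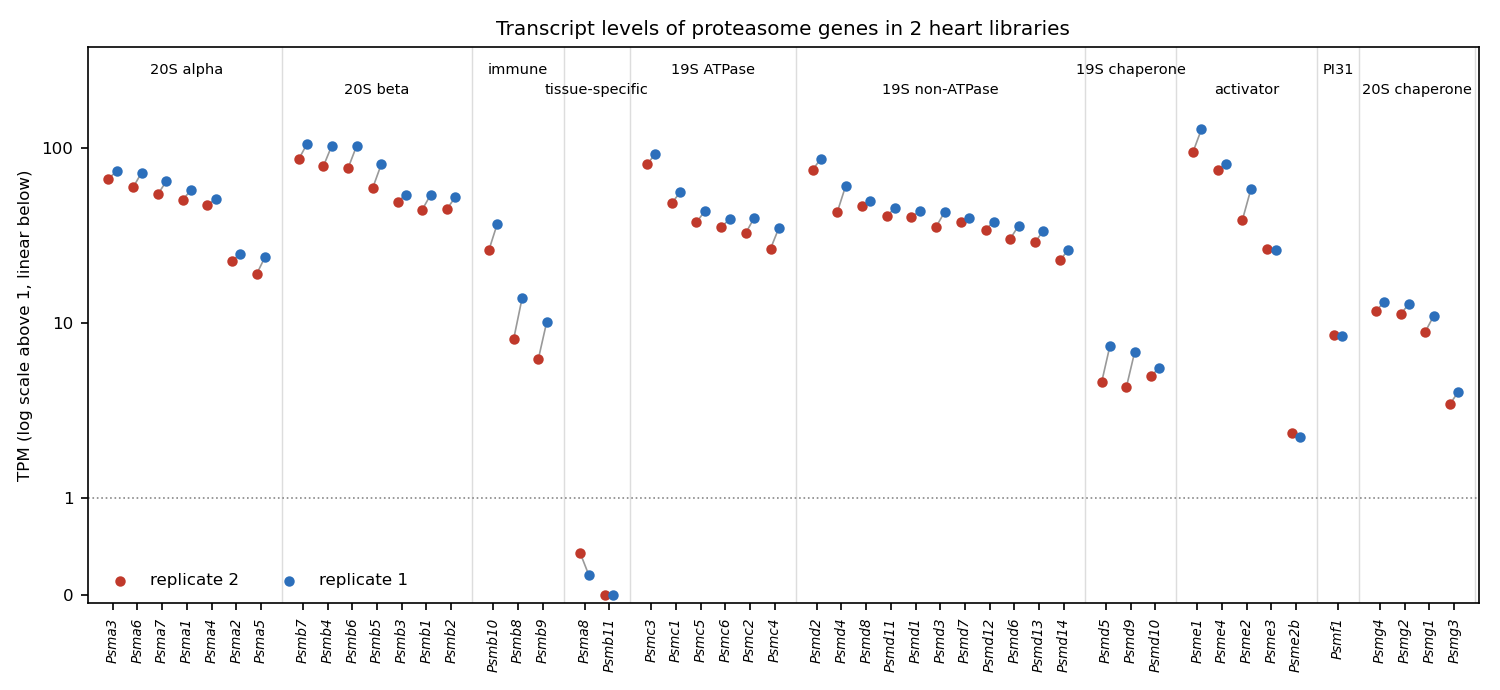
TPM of 49 proteasome genes in replicate 2 (red, left) and replicate 1 (blue, right), grouped by role and ordered by mean within a group; the axis is logarithmic above 1 TPM and linear below, and the dotted line marks 1 TPM. Core, regulatory particle and most activator genes lie between 22.9 and 129 TPM except Psma2, Psma5 and Psme2b, while chaperones and Psmf1 lie lower and Psma8 and Psmb11 fall under 1 TPM.

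The alpha subunits of the core fell into a high set of 5 and a low pair. Psma3 (alpha7) was the highest with all transcripts counted, at 67.2 and 74.2 TPM. Protein-coding transcripts held 49.8% of Psma3 TPM, against 98.6% for Psma6, and 5.62% of Psma3 in the second quantification. The rank of Psma3 therefore does not hold for protein-coding transcripts. Psma6 (alpha1) was at 60.1 and 72.5 TPM, so its libraries overlapped the range of Psma3. Psma7 (alpha4), the subunit with a testis-specific counterpart, was at 54.7 and 64.8 TPM. Psma1 (alpha6) and Psma4 (alpha3) followed closely in the order. Psma1 was at 50.9 and 57.5 TPM. Psma4 was at 47.3 and 51.4 TPM, and the 2 genes overlapped. The low pair lay well below this set in both libraries. Psma2 (alpha2) was at 22.8 and 24.9 TPM. Psma5 (alpha5) was at 19.1 and 23.98 TPM, which overlapped Psma2. The level of the highest alpha subunit was 3.28-fold that of the lowest by mean TPM over all transcripts.

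The beta subunits were more even, with a 1.98-fold span, and the genes of the cutting subunits were 3 of the 4 highest. Psmb7 (beta2), which carries the trypsin-like activity, was at 86.6 and 106 TPM. Psmb6 (beta1), with the caspase-like activity, was at 77.2 and 103 TPM. Psmb5 (beta5), with the chymotrypsin-like activity and the target of the inhibitor bortezomib, was at 59.6 and 80.9 TPM. Psmb4 (beta7), a subunit without catalytic activity, stood among them. Psmb4 was at 79.1 and 104 TPM. The other structural subunits were close to each other and overlapped between libraries. Psmb3 (beta3) was at 49.5 and 54.5 TPM. Psmb1 (beta6) was at 44.6 and 54.3 TPM. Psmb2 (beta4) was at 45.03 and 52.7 TPM. In the second quantification Psmb5, at 54.2 and 67.7 TPM, did not stand apart from any of these structural subunits. Psmb3 was there at 57.4 and 64.5 TPM, Psmb1 at 55.3 and 66.5 TPM and Psmb2 at 48.6 and 58.3 TPM. Across all 14 constitutive core genes the level of the highest was 4.48-fold that of the lowest by mean TPM, 4.52-fold in replicate 2 and 4.44-fold in replicate 1. The span was 6.42-fold in the second quantification. Transcript levels of subunits that stand at equal numbers in the particle thus differed between genes by more than the spread of the libraries, while levels of protein were not measured.

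All 3 immune subunits were detected, each below its constitutive counterpart. Psmb10, the immune form of beta2, was at 26.2 and 37.1 TPM. Psmb8, the immune form of beta5, was at 8.11 and 13.9 TPM. Psmb9, the immune form of beta1, was at 6.25 and 10.2 TPM. All 3 were lower in replicate 2, and their ranges lay apart from those of Psmb7, Psmb5 and Psmb6. Psmb10 made up 23.3% of the summed TPM of Psmb10 and Psmb7 in replicate 2 and 25.9% in replicate 1, a mean of 24.6% ± 1.85. Psmb8 made up 11.97% and 14.6% of its pair with Psmb5, a mean of 13.3% ± 1.88. Psmb9 made up 7.49% and 9.01% of its pair with Psmb6, a mean of 8.25% ± 1.07. The constitutive gene was thus the larger in every pair and library. As a share of expected counts, Psmb8 took 13.6% of its pair in replicate 2 (95% exact interval 11.97 to 15.3) and 16.98% in replicate 1 (15.5 to 18.6), so these intervals did not overlap. The intervals of Psmb9 overlapped, at 7.92 to 10.66 in replicate 2 and 9.29 to 11.76 in replicate 1. Those of Psmb10 nearly touched, at 16.66 to 19.25 in replicate 2 and 19.27 to 21.67 in replicate 1. Intervals are Clopper-Pearson and cover counting error only.

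The immune shares depended on which transcripts were counted. Psmb10 had 1 annotated protein-coding transcript, Psmb10-201, which held 44.2% of its TPM in replicate 2 and 46.3% in replicate 1. Transcripts with a retained intron held 28.7% ± 6.904 of Psmb10 and a processed transcript 26.02% ± 8.39. In Psmb8, retained-intron transcripts held 44.5% ± 1.56, but 14.3% ± 1.03 in the second quantification. From protein-coding transcripts only, an alternative chosen after seeing the data, the Psmb10 share was 11.8% in replicate 2 and 13.9% in replicate 1. The Psmb8 share was then 7.15% and 8.53%, and the Psmb9 share 6.16% and 8.87%. In the second quantification the protein-coding share of Psmb8 was 12.1% and 15.4%, that of Psmb9 6.69% and 7.24%, and that of Psmb10 12.95% and 15.4%. The constitutive gene was the larger of each pair in both quantifications, while the size of the Psmb8 share depended on the quantification.

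**Figure D2:**
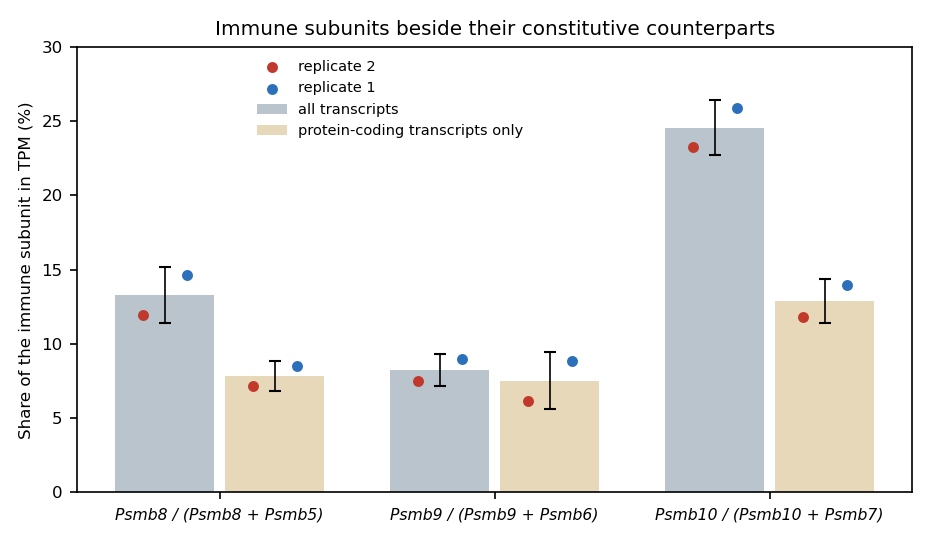
Share of each immune subunit in the summed TPM of the pair with its constitutive counterpart, in percent; bars are means of the 2 libraries and lines the SD (n = 2), from all transcripts (grey) or protein-coding transcripts only (tan), with replicate 2 in red and replicate 1 in blue. The mean Psmb10 share is 24.6% with all transcripts and 12.9% with protein-coding ones, and all bars lie under 30%.

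Sequences before the RefSeq start sites of Psmb8, Psmb5 and Psmb6 are shown for their motif matches. Among the immune genes and their constitutive counterparts, these windows held a match to an interferon-type motif or to the antioxidant response element. The windows of Psmb9 and Psmb10 held neither and are not shown. No window was found for Psmb7, so it was not searched. The windows are the 250 bases before the start site in RefSeq, build GRCm38.p6, written 5′ to 3′ on the strand of the gene. Some RefSeq starts differ from those of the GENCODE M21 annotation used for the gene values. There Psmb8 starts at 34197721, so its window lies inside the gene, as does the window of Psmb9. The last bases of the Psmb5 window also lie inside its gene, which there spans 54614119 to 54618022. The window of Psmb8 is chr17:34197945-34198194 on the plus strand, that of Psmb5 chr14:54617996-54618245 on the minus strand and that of Psmb6 chr11:70525107-70525356 on the plus strand. Capitals mark a match to the interferon-gamma activated site TTCNNNGAA in Psmb8 and to TGACNNNGC, the core of the antioxidant response element that Nfe2l1 and Nfe2l2 bind, in Psmb5 and Psmb6.
Psmb8: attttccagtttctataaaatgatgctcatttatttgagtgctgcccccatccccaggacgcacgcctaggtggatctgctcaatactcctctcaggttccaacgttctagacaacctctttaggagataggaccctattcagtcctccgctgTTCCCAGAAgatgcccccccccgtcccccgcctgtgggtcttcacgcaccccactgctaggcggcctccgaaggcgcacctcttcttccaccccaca
Psmb5: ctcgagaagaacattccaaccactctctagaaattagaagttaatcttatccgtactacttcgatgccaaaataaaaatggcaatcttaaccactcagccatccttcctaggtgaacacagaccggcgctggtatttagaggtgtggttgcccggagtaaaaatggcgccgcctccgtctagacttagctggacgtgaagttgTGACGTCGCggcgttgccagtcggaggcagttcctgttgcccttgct
Psmb6: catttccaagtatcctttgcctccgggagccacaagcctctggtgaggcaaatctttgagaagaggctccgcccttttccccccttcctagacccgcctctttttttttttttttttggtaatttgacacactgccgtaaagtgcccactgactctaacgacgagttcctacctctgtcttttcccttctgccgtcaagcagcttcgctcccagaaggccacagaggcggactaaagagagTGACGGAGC
Each motif was searched on both strands in the 45 windows found for 42 of the 50 genes. The activated-site motif was in 2 of the 45 windows, 4.44%, against 7.02% of 32851 windows of all genes. Besides Psmb8 it was in the window of Psmg1. The antioxidant motif was in the windows of 5 genes, Psmb5, Psmb6, Psmc6, Psmd9 and Psmd12, or 11.1% of windows against 10.2% of all. The CCAAT box was in the windows of 15 genes, 33.3% against 33.8%, Psmb9 included. The core of the interferon-stimulated response element, GAAA followed by any 2 bases and GAAA, was in the windows of Psmb3, Psmd4 and Psmd9, 6.67% of windows against 2.98%. A match describes letters in these windows and no binding was measured. No pair of the motifs overlapped in the windows printed.

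The immune genes Psmb9 and Psmb8 lie 9956 bases apart on chromosome 17 (mm10), Psmb9 from 34181987 to 34187764 and Psmb8 from 34197721 to 34201454, next to the peptide transporter genes Tap1 and Tap2. Psmb10 lies elsewhere, on chromosome 8 from 105935735 to 105938444. Psmb9 overlaps Tap1, which was at 4.05 and 4.59 TPM, on the other strand. The sources used here do not say whether counting used the strand, so reads in that overlap cannot be assigned with certainty. Tap2 was at 10.4 and 13.4 TPM, close to Psmb8.

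The tissue-specific subunits were at or near 0 in both libraries. Psmb11 (beta5t), which replaces Psmb5 in the thymus cortex, had 0 counts in both. Beside Psmb5 a count of 0, taken as up to 3 counts, allows a share of up to 0.207% in replicate 2 and 0.152% in replicate 1. The upper bounds of the 95% exact intervals were 0.254% in replicate 2 and 0.187% in replicate 1. The second quantification listed Psmb11 at 0.0641 and 0.0297 TPM. The gene lies 3410 bases from Psmb5 on chromosome 14, from 54621433 to 54629556. Of 4 listed thymus cortex genes, the factor Foxn1 was at 0 TPM in both libraries. Prss16 was at 0.03 and 0 TPM, Ly75 at 0.41 and 0.44 TPM, and Ccl25 at 0.94 and 1.08 TPM. Psma8 (alpha4s), the testis counterpart of Psma7, had 14 counts in replicate 2 and 8 in replicate 1, or 0.43 and 0.21 TPM. Its share of counts in the pair with Psma7 was 1.01% in replicate 2 (95% exact interval 0.553 to 1.69) and 0.486% in replicate 1 (0.2099 to 0.955), and these intervals overlapped. Of 5 listed germ cell genes Tnp1, Prm1 and Acrv1 were at 0 TPM in both libraries. Ddx4 was at 0.02 and 0.03 TPM and Sycp3 at 0.03 and 0 TPM. Psmc3ip, the recombination factor, had 17 counts in replicate 2 and 33 in replicate 1, at 0.6 and 1.04 TPM, and its leading transcript was a retained-intron form.

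The 6 ATPases of the 19S base, which form its unfolding ring, were led by Psmc3 and otherwise close together. Psmc3 (Rpt5) was at 81.1 and 93.2 TPM. Psmc1 (Rpt2), whose tail helps open the gate of the core, was at 48.6 and 56.1 TPM. These 2 genes did not overlap each other. Psmc5 (Rpt6) was at 37.8 and 43.8 TPM. Psmc6 (Rpt4) was at 35.5 and 39.3 TPM. Psmc2 (Rpt1) was at 32.9 and 40.2 TPM. Psmc5, Psmc6 and Psmc2 overlapped one another. Psmc4 (Rpt3) was the lowest, at 26.7 and 35.2 TPM, and its higher library overlapped Psmc2. In the second quantification Psmc6 was at 69.3 and 79.3 TPM, above Psmc1 by mean, so the order of the ring genes depended on the quantification.

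The 11 non-ATPase subunits of the regulatory particle spanned 3.32-fold, from the scaffold gene Psmd2 down to the deubiquitinase gene Psmd14. Psmd2 (Rpn1), which docks ubiquitin-like proteins, was at 75.3 and 87.5 TPM. Psmd4 (Rpn10), a ubiquitin receptor, was at 43.2 and 61 TPM. Psmd8 (Rpn12) of the lid was at 46.7 and 49.96 TPM. Psmd2 stood alone at the top, and Psmd4 and Psmd8 overlapped. Psmd11 (Rpn6), a lid subunit that clamps the cap to the core, was at 41.05 and 45.7 TPM. At the low end of the class were lid subunits. Psmd12 (Rpn5) was at 34.3 and 38.1 TPM. Psmd6 (Rpn7) was at 30.4 and 36.2 TPM. Psmd13 (Rpn9) was at 28.98 and 33.8 TPM. These 3 genes overlapped in part. Psmd14 (Rpn11), the metalloprotease that cuts ubiquitin from the substrate, was at 22.9 and 26.1 TPM, below each of the other subunits of its class in both libraries. The other subunits, Psmd1, Psmd3 and Psmd7, had means between 39.02 and 42.1 TPM. The level of the highest of the 17 ATPase and non-ATPase genes was 3.56-fold that of the lowest.

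The chaperones that assemble the ATPase ring and are absent from the finished particle were far lower than the ring. Psmd5 (S5b) was at 4.6 and 7.46 TPM. Psmd9 (p27) was at 4.3 and 6.87 TPM. Psmd10 (gankyrin), which also binds the retinoblastoma protein, was at 5 and 5.56 TPM. The 3 genes overlapped in level. The core chaperones were of the same order. Psmg4 was at 11.7 and 13.2 TPM. Psmg2, which pairs with Psmg1 to build the alpha ring, was at 11.3 and 12.9 TPM. Psmg1 was at 8.94 and 11.01 TPM and lay below both, with no overlap. Psmg3, the partner of Psmg4, was the lowest at 3.45 and 4.06 TPM, apart from the other core chaperones.

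Among the activators, Psme1 had the highest mean TPM of all 50 genes, with a range that overlapped that of Psmb7, and Psme4 had the most counts. Psme1 (PA28 alpha) was at 95.5 and 129 TPM. Its rank counts all transcripts. Protein-coding transcripts held 63.8% of Psme1 TPM, against 99.8% for Psmb7. In the second quantification they held 43.7% of Psme1. Psme2 (PA28 beta), which forms a mixed ring with Psme1 and is induced with it by interferon gamma, was at 39.1 and 58.3 TPM. Psme1 stood above Psme2 in both libraries. Psme4 (PA200), a large nuclear activator, was at 75.6 and 81.3 TPM from 14469 and 15452 counts. Psme3 (PA28 gamma), which forms nuclear rings of its own, was at 26.5 and 26.2 TPM and so nearly equal in TPM between libraries. Psmf1 (PI31), named as an inhibitor of the core in vitro, was at 8.52 and 8.51 TPM, also nearly equal in TPM. In scaled counts the log2 ratio was 0.081 for Psme3 and 0.11 for Psmf1.

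Psme2b, annotated as protein-coding on chromosome 11 from 48945354 to 48946190, was at 2.37 and 2.25 TPM beside the near-identical Psme2, on chromosome 14 from 55587441 to 55591113. The coding sequences of Psme2-208 and Psme2b-201 in GENCODE M21 (mm10), each of 717 bases, differed at 5 positions, an identity of 99.3%. Coding bases 424 to 543 are shown because they hold 3 of the 5 differing positions. Capitals mark these 3.
Psme2: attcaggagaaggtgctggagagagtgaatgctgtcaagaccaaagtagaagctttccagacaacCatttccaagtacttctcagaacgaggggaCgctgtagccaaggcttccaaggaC
Psme2b: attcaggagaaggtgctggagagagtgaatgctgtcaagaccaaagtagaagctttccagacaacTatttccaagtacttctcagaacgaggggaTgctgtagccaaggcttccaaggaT
Of the 100-base windows of Psme2b transcripts, 52.03% also occurred in Psme2, and of those of Psme2 18.4% occurred in Psme2b. The split of counts between these genes, 853 and 1013 for Psme2 against 53.7 and 51.1 for Psme2b in replicates 2 and 1, is therefore uncertain. Most members had no such partner, since 36 of 50 shared no window of 100 bases with another gene. Psma5 shared 23.7% of its windows, with the processed pseudogenes Gm8394 and Gm12989. Psmb5 shared 22.2%, most of it with the pseudogene Gm3375, which was listed at 5.76 and 9.98 TPM. Psma3 shared 13.4% with the pseudogene Gm13835, listed at 7.52 and 7.78 TPM. Whether reads of these members were assigned to the copies was not tested. The 4 annotated pseudogenes of Psmb5, Psmb6 and Psmb7 named -ps were at 0 TPM in both libraries.

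The wider ubiquitin-proteasome system was present as well. Of 30 listed genes 28 were annotated under the listed symbol, and all 28 reached 1 TPM in both libraries. Ubb, a polyubiquitin gene, averaged 243 ± 2.23 TPM, and Rps27a, which encodes ubiquitin fused to a ribosomal protein, 186 ± 33.1 TPM. Nfe2l1, the transcription factor that induces proteasome genes when the proteasome is inhibited, was at 176 and 196 TPM, above every proteasome gene. Vcp, the ATPase that extracts ubiquitinated proteins, averaged 102 ± 10.9 TPM. The lowest were Uchl5, a deubiquitinase of the 19S particle, at 6.68 ± 0.148 TPM, and Fbxo7, an adaptor of a ubiquitin ligase that binds PI31, at 5.62 ± 0.283 TPM. The subunits and assembly factors that do not carry a Psm symbol were of the same order as the members. Sem1 (Rpn15) was at 35.2 and 49.8 TPM. Adrm1 (Rpn13), a ubiquitin receptor, was at 29.4 and 34.97 TPM. Pomp, the maturation factor of the core, was at 63.4 and 81.4 TPM, several times the level of the Psmg chaperones. Sem1, Adrm1 and Pomp were named after their values were seen.

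Between the libraries, none of the 47 genes that averaged 1 TPM or more was 2-fold apart, where 1.67% of all 12189 such genes were. The median log2 count ratio of the 47, replicate 2 over replicate 1, was -0.11, against -0.019 for all 12189. The ratio lay below 0 for 38 of the 47 and for 54.5% of all genes. By the two-sided exact binomial test, conditional on the sum of both libraries and adjusted by Benjamini-Hochberg over the 12189 genes at 0.05, 17 of the 47 were lower in replicate 2 beyond counting error, where 15.9% of all genes were. The test called 1 of the 47 higher, where 10.7% of all genes were called higher. More counts let smaller differences pass, and 33 of the 50 genes ranked in the top 10% by TPM. These shares therefore do not compare genes of like depth. At a mean of at least 5 TPM, 19 of 45 members were lower, beside 1706 of all 7786 genes. There 1 member was higher, beside 1041 of 7786. The differences were small, and 46 of the 47 lay within 1.5-fold. Ratios of all genes were also close to 0. The middle 50% of the 12189 genes lay between -0.14 and 0.10, and that of the 47 between -0.20 and -0.036. The count of lower genes moved with the scaling. With total counts as library sizes 32 of the 47 were lower, beside 3473 of all 12189 genes. With spike-in counts 9 of the 47 were lower, beside 990 of 12189, and 7 were higher, beside 2884 of 12189. The median of the 47 stayed below 0 in these settings, at -0.19 and -0.016, with all genes at -0.096 and 0.075. In whole tissue, fewer cells of a type and less RNA per cell cannot be told apart.

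The immune subunits had the 3 lowest ratios of the 47. Psmb8 had 228 counts in replicate 2 and 403 in replicate 1, a log2 ratio of -0.68 (95% exact interval -0.93 to -0.45, adjusted p = 9.05e-08, exact binomial test). Psmb9 had 165 and 256 counts and a log2 ratio of -0.49 (-0.79 to -0.21, adjusted p = 0.00324, exact binomial test). Psmb10 had 617 and 899 counts and a log2 ratio of -0.40 (-0.56 to -0.26, adjusted p = 7.96e-07, exact binomial test). Each of the 3 was lower under every library scaling tried and in the second quantification. Of 14 listed genes of the interferon response and antigen presentation, 7 were lower and 1 higher in replicate 2, with a median log2 ratio of -0.31. H2-K1, a class I histocompatibility gene, was at 49.95 and 136 TPM and B2m, its light chain, at 98.1 and 208 TPM. These 2 genes were named after their values were seen. Irf1, which induces immune subunits, was the gene that was higher, at 12.9 and 9.65 TPM. Of 8 macrophage and monocyte markers, 7 of them tested, 5 were lower and none higher, and their summed level was 97.5 and 133 TPM. Markers of T and NK cells summed to 1.45 and 1.08 TPM and those of B cells to 2.17 and 1.6 TPM. Neutrophil markers summed to 0.64 and 0.4 TPM, with Ly6g at 0. White adipocyte markers summed to 11.2 and 52.6 TPM and erythroid genes to 6791 and 10470.4 TPM. Endothelial markers summed to 186 and 183 TPM, with 1 of 6 lower and 3 higher by counts and a median log2 ratio of 0.062. Fibroblast markers summed to 207 and 231 TPM, with 2 of 6 lower and 3 higher and a median log2 ratio of 0.075. Of the 6 cardiomyocyte markers 5 were lower and 1 higher, with a median of -0.15. The part of any of these in the lower immune subunits was not tested.

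The next lowest single ratios were those of Psmb5 and Psmb6. Of the 7 constitutive beta subunits 5 were lower beyond counting error, with a class median of -0.20. The median of the 3 chaperones of the regulatory particle was lower, at -0.23. Psmb5 had 1452 and 1970 counts and a log2 ratio of -0.30 (adjusted p = 1.63e-08, exact binomial test). Psmb6 had 1624 and 2188 counts and a log2 ratio of -0.29 (adjusted p = 7.97e-09, exact binomial test). Psmb4, Psmb1 and Psmb7 were also lower, and Psmb2 and Psmb3 had log2 ratios of -0.10 and -0.012 that did not pass. Of the alpha subunits 3 of 7 were lower, Psma3, Psma5 and Psma6, with ratios no lower than -0.20. Of the ATPases 3 of 6 were lower, Psmc2, Psmc3 and Psmc4, and of the 11 non-ATPase subunits 2, Psmd13 and, named after its values were seen, Psmd3. None of the 7 chaperones passed the test, at 81 to 455 counts per library.

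The activators went different ways between the libraries. Psme1 had 2354 counts in replicate 2 and 3130 in replicate 1, a log2 ratio of -0.27 (adjusted p = 5.60e-11, exact binomial test). Its partner Psme2 had a log2 count ratio of -0.11 that did not pass (adjusted p = 0.234, exact binomial test), although its TPM was 39.1 and 58.3. Psme4 was the only member called higher in replicate 2, by a log2 ratio of 0.042 (adjusted p = 0.0448, exact binomial test). With DESeq2 size factors that ratio was 0.03 and no longer passed, and with total counts it was -0.035. Psme4 has the most counts of the 50 genes, so a difference this small is within reach of the test. The 5 highest ratios were 0.21 for Psme2b, 0.11 for Psmf1, 0.09 for Psma2, 0.081 for Psme3 and 0.051 for Psmd7, and none passed the test. Among the 28 other ubiquitin-proteasome genes 9 were lower and 2 higher, Nfe2l1 and Ubb, with a median log2 ratio of -0.028.

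**Figure D3:**
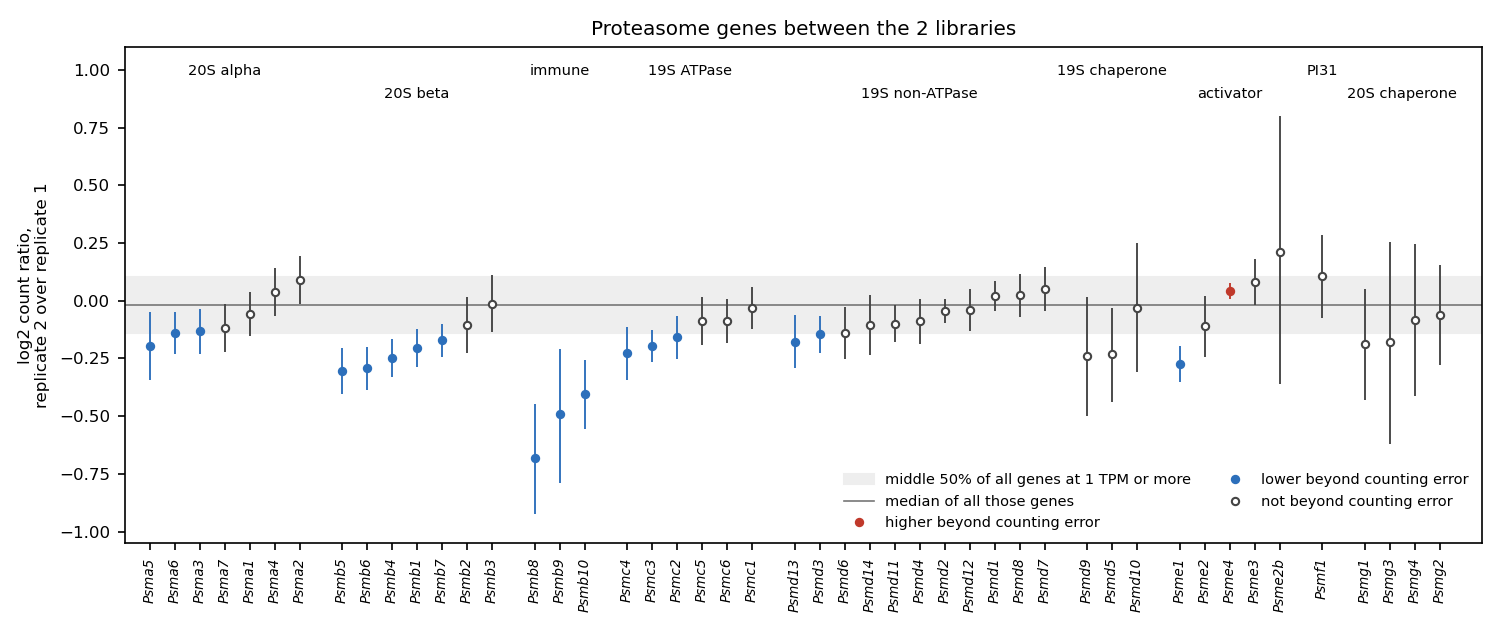
Log2 ratio of TMM-scaled counts, replicate 2 over replicate 1, of the 47 genes that averaged 1 TPM or more, by class; lines are 95% exact intervals of counting error, filled points passed the exact binomial test, and the grey band is the middle 50% of all 12189 genes. Psmb8, Psmb9 and Psmb10 lie lowest, from -0.68 to -0.40.

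The ratio was lower in TPM than in scaled counts for all 47 genes, also where the deposited effective length was equal: Psma5, with 1140 bases in both libraries, had a log2 ratio of -0.32 in TPM and -0.20 in counts. The gap was widest for 4 genes. Psmd4 had a log2 ratio of -0.50 in TPM and -0.09 in counts, with an effective length of 1161 bases in replicate 2 and 957 in replicate 1. Psmd5 had -0.70 in TPM and -0.23 in counts. Psmd9 had -0.68 in TPM and -0.24 in counts. Psme2 had -0.58 in TPM and -0.11 in counts. None of these 4 genes passed the test on counts.

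The second deposited quantification, made from the reads with an index in place of alignments, put none of the 47 genes 2-fold away from the first. It gave a higher mean for 38 of the 47, and 3 were over 1.5-fold apart. Psmc6 was 1.99-fold higher in the second quantification, at 69.3 and 79.3 TPM against 35.5 and 39.3 in the first. Psme1 was 1.63-fold higher, at 163 and 203 TPM, and was again the highest of the 50 with all transcripts counted. Psmd5 was 1.54-fold higher. The lowest ratio was that of Psma2, at 0.7501-fold of the first quantification. The levels of the other members therefore hold to within 1.5-fold between the quantifications.

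**Figure D4:**
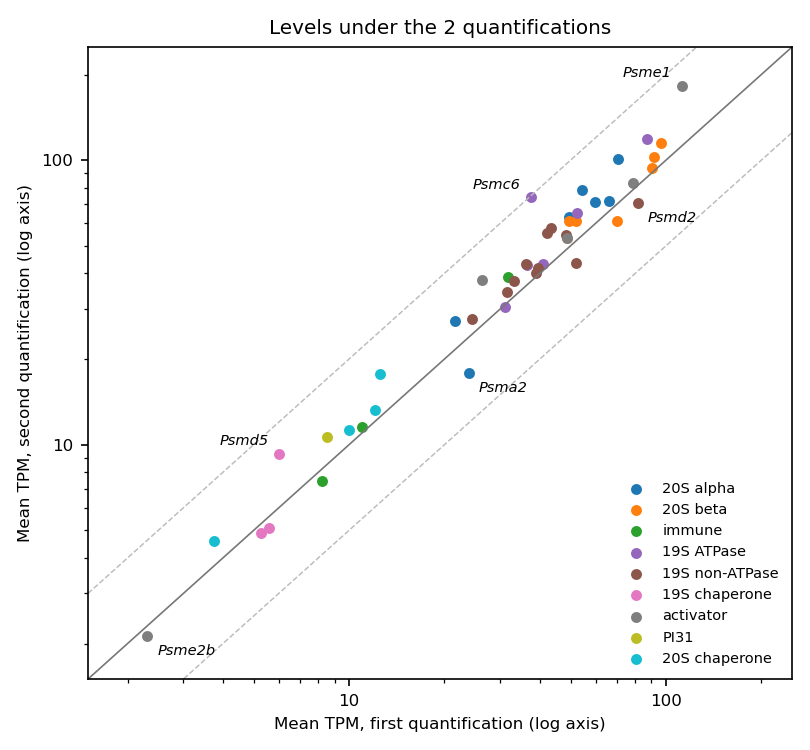
Mean TPM of the 47 genes in the second quantification against the first, both axes logarithmic, coloured by class; the solid line is equality and the dashed lines are 2-fold apart. Psmc6 lies just under the upper dashed line, at 1.99-fold.

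Most proteasome genes were read as 1 main protein-coding transcript. The leading transcript held over 50% of TPM in 39 of the 47 genes and over 90% in 21, and it was annotated as protein-coding in all 47 in the first quantification. The median share of protein-coding transcripts was 98.4% in the 47 genes, beside 94.7% in the 11116 protein-coding nuclear genes of that level. Both quantifications named the same leading transcript for 39 genes. In the second quantification, 4 leading transcripts were of the nonsense-mediated decay class, meaning annotated with an early stop that would mark them for degradation. Psma3-201 held 43.8% ± 1.59 of Psma3 there, Psmc6-208 44.2% ± 3.56 of Psmc6, Psmd13-211 47.7% ± 6.45 of Psmd13 and Psme1-209 52.2% ± 4.38 of Psme1. In the first quantification protein-coding transcripts led these genes: Psma3-204 with 36.5% ± 3.04, Psmc6-201 with 59.2% ± 4.47, Psmd13-208 with 39.8% ± 5.06 and Psme1-208 with 62.5% ± 2.69. The share of protein-coding transcripts in Psma3 was 5.62% ± 3.34 in the second quantification and 49.8% ± 5.35 in the first. For these 4 genes the transcript split is not settled by the deposited values, and 2 of them, Psmc6 and Psme1, are also those whose level differed most between the quantifications. The leading transcript also differed in Psmb1, Psmb8, Psmd8 and Psmd9, between protein-coding transcripts.

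In 8 genes no transcript had a mean share over 50% of TPM in the first quantification. Psme2-208 held 56.6% of Psme2 in replicate 2 and 31.5% in replicate 1. Psmd4-202 held 51.9% of Psmd4 in replicate 2 and 34.8% in replicate 1. Psmd9-204 held 38.1% of Psmd9 in replicate 2 and 58.4% in replicate 1. In these 3 the leading share differed between libraries, and they are among the genes named above for different ratios in TPM and in counts. Psmb9-204 held 32.3% of Psmb9 in replicate 2 and 42.98% in replicate 1. Psmd11-201 held 45.7% of Psmd11 in replicate 2 and 48.1% in replicate 1, with most of the remainder in other protein-coding transcripts. The other genes under 50% were Psma3, Psmb10 and Psmd13.

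**Figure D5:**
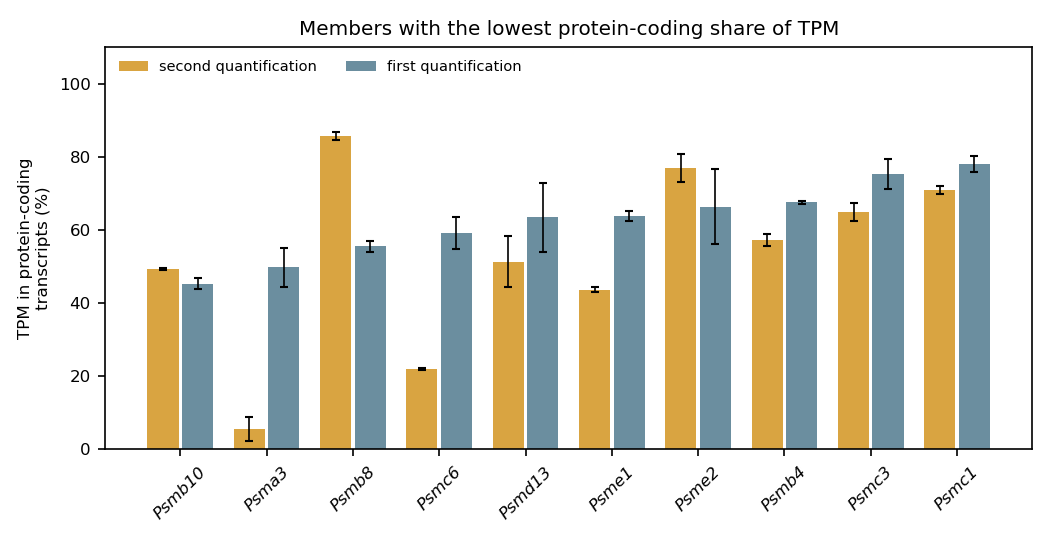
Share of TPM in protein-coding transcripts, in percent, for the 10 genes with under 80% in the first quantification; bars are means of the 2 libraries and lines the SD (n = 2), with the second quantification in gold on the left and the first in blue-grey on the right. Psma3 and Psmc6 show the largest gaps, with 5.62% and 21.96% in the second quantification.

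The genes lie on 16 chromosomes, mostly apart from each other. The pairs that lay close together were Psmb9 and Psmb8, Psmb5 and Psmb11, and Psme1 and Psme2, with 5911 bases between the last of these on chromosome 14. For 8 of the 50 genes the nearest protein-coding start lay within 1000 bases upstream, on the other strand and pointing away. This was 16%, against 6.57% of all 22015 nuclear protein-coding genes. Overlapping genes of opposite strands with starts that close, such as Psmb9 and Tap1, were not counted in either share. Psmc2 and Dnajc2, a ribosome-bound chaperone, start 32 bases apart, and Dnajc2 was at 7.4 and 8.61 TPM. Psma2 and Mrpl32, a mitochondrial ribosomal protein gene, start 75 bases apart, and Mrpl32 was at 14.8 and 17.6 TPM. Psmb1 and Tbp, the TATA-binding protein gene, start 137 bases apart, and Tbp was at 3.54 and 4.13 TPM. In each of these pairs, which were picked as examples with their values in view, the proteasome gene was the higher in both libraries. Of the 50 genes 10 overlap a protein-coding gene of the other strand, among them Psmb7 with Nek6, Psmc3 with Slc39a13, Psmd13 with Sirt3 and Psme1 with Emc9, so the limit on strand given for Psmb9 holds for them as well.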

How the data were processed

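Total RNA from heart was sequenced in 2 libraries. Per the deposited file list, reads were mapped to mm10 with GENCODE M21 annotation; the first gene and transcript tables were derived from transcriptome alignments and the second transcript table from the reads with an index. The deposited tables hold expected counts and TPM as the authors estimated them, so reads shared by near-identical genes were split by a model. The quantification tools, and whether counting used strand, are not given in the sources used here. For the second quantification, transcript values were summed per gene.

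For the tests, the expected counts were rounded to whole numbers. Genes that averaged 1 TPM or more were tested with an exact conditional binomial test (two-sided; scipy 1.17.1) on library sizes scaled by TMM (edgeR 4.0.16), with Benjamini-Hochberg adjustment over all tested genes at 0.05; with 1 library on each side no model of biological spread could be fitted. Log2 ratios used a prior count of 2. Alternatives were DESeq2 1.42.0 size factors, total or spike-in counts as library sizes, other filters and prior counts, and the second quantification. Intervals are 95% and cover counting error only. The procedure was tested on simulated data drawn with counting error only. That test therefore does not bear on biological spread between libraries.

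Members and gene lists were chosen with earlier results of these data known. Genes were named by fixed rules: every core, ATPase, activator, inhibitor and chaperone gene, the 4 highest and 4 lowest non-ATPase genes, and the 5 largest library ratios in each direction; others named are said to be so or are given by class. Some genes that these rules name are not reported here.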

Additional observations from a re-analysis of the deposited data

How the results depend on the processing

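The second quantification gave mean summed TPM of 978 for the core, 883 for the regulatory particle and 359.5 for the activators, a share of 0.484% of nuclear protein-coding TPM, a Psmb8 share of 15.7%, and spans of 6.42-fold in the core and 4.29-fold in the regulatory particle. With all genes as denominator the proteasome share was 0.200%. From expected counts the shares of Psmb8, Psmb9 and Psmb10 were 15.3%, 9.85% and 19.2%. From protein-coding transcripts only they were 7.84% for Psmb8 and 12.9% for Psmb10, and 13.7% and 14.2% in the second quantification. The number of members lower in replicate 2 was 32 with total counts, beside 3473 of all 12189 genes. It was 9 with spike-in counts as library sizes, beside 990 of 12189. The number higher was 7 with spike-in counts, beside 2884 of 12189. It was 0 with DESeq2 size factors, total counts, the second quantification and no filter on TPM. Of all genes, those higher in these settings were 1171 of 12189, 700 of 12189, 1266 of 12305 and 1339 of 24042. Psme4 turned to -0.035 (log2) with total counts. The causes were not tested, beyond the change of scale itself.

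Of 47 library ratios, 43 kept their call with DESeq2 size factors, 41 in the second quantification, 33 with spike-in counts and 31 with total counts. The leading transcript's share moved in 37 of 47 genes in the second quantification. With 2 libraries, leaving out one returns the value of the other, and leaving out Psme2 and Psme2b, neither of them called, could not change the count of lower genes, so neither alternative bears on stability. No paired analysis was possible because both libraries belong to 1 group. Depth limits Psma8, Psmb11 and Psmc3ip, which had 33 counts or fewer per library.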
